A study of Mus musculus with 6 samples.

Results

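Meningeal fibroblast genes were followed in RNA-seq libraries of the mouse hippocampus after chronic cerebral hypoperfusion. The 10 genes were *Dcn*, *Lum*, *Ogn*, *Mgp*, *Igf2*, *Slc6a13*, *Slc22a6*, *Aldh1a2*, *Cyp1b1* and *Foxc2*. They were matched by symbol to the Ensembl identifiers of the count tables, and each of the 10 was found once among 54752 genes. All 10 passed edgeR's filter on low counts and belonged to the 18617 genes tested. The libraries came from the whole right hippocampus of 6 male wild-type C57BL/6 mice (substrain J in the methods) aged 14 weeks, with 1 library per mouse. In the 3 BCAS mice (bilateral carotid artery stenosis), a microcoil had been wrapped around each common carotid artery, with the narrower coil on the right. The arteries of the 3 sham mice were exposed in a like operation, but no coil was placed. Tissue was taken 3 weeks after surgery. The comparison asked whether RNA of the meninges that may come away with dissected hippocampus differed between mice and between the groups.

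The meninges are the membranes that wrap the brain: the dura on the outside, the arachnoid below it and the pia on the brain surface. Their fibroblasts secrete the collagens and proteoglycans of these sheets, make retinoic acid and carry transporters that clear solutes from the cerebrospinal fluid. Pia follows vessels into the tissue and lines the hippocampal fissure, and the choroid plexus, a separate epithelium that makes cerebrospinal fluid, lies along the edge of the hippocampus. Bulk RNA cannot tell fewer cells of a type from less RNA per cell, nor meninges on the surface from fibroblasts around vessels inside the tissue.

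Sham libraries held 34301711 to 35607098 counts in all, and those of BCAS mice 29652456 to 31892083. At these depths 3 counts, taken as the limit of detection, were worth 0.0875 to 0.0995 CPM (counts scaled to a common library size with edgeR's TMM factors), a limit that covers counting error only. Every member lay above it in each of the 6 mice, and the lowest member value was 0.898 CPM for *Foxc2* in sham mouse 2. All 8 hippocampal neuron markers were detected, with summed levels of 2718 to 2940 CPM in sham mice and 1378 to 1948 CPM in BCAS mice. The 12 choroid plexus markers, led by *Ttr*, summed to 1061, 4320 and 80.2 CPM in sham mice 1 to 3 and to 6298, 48.0 and 3427 CPM in BCAS mice 1 to 3. All 12 were highest in sham mouse 2 and lowest in sham mouse 3 within the sham group, and highest in BCAS mouse 1 and lowest in BCAS mouse 2 within the BCAS group. Choroid plexus transcripts therefore differed among mice of 1 group far more than any member did, and the count of members, *Igf2* and *Slc6a13* are given below with and without the libraries low in them.

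Of the 10 members, 5 were higher in BCAS mice past both thresholds of the study, an adjusted P under 0.05 and a log2 fold change above 1. These were *Ogn*, *Igf2*, *Aldh1a2*, *Cyp1b1* and *Foxc2*. Among all tested genes, 8.47% passed both thresholds in this direction. Without the fold threshold 8 members were higher, now with *Lum*, *Mgp* and *Slc22a6*, where 18.0% of all tested genes were. No member was lower past both thresholds, against 0.999% of tested genes, and none was lower with an adjusted P under 0.05, against 13.2%. None was lower at an unadjusted P under 0.05 either, and none was lower past both thresholds by DESeq2 or limma-voom. In 8 of 10 members the lowest BCAS mouse lay above the highest sham mouse, as in 25.3% of tested genes. The fold change was above 1 for all 10 members and for 51.8% of tested genes. The median log2 fold change was 1.00 over the members and 0.02 over all tested genes. The count past both thresholds leaned on single libraries: it was 2 without sham mouse 1 (*Aldh1a2* and *Cyp1b1*), 2 without sham mouse 2 and 2 without BCAS mouse 3 (*Igf2* and *Foxc2* each time), and 5 or 6 without any of the other 3 mice. In the 3 fits with a count of 2, in the order given, 7.35%, 7.93% and 6.34% of all tested genes passed both thresholds in this direction. With glmTreat, which tests whether the change itself exceeds a log2 fold change of 1, the count was 0, against 4.32% of all tested genes.

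**Figure D1:**
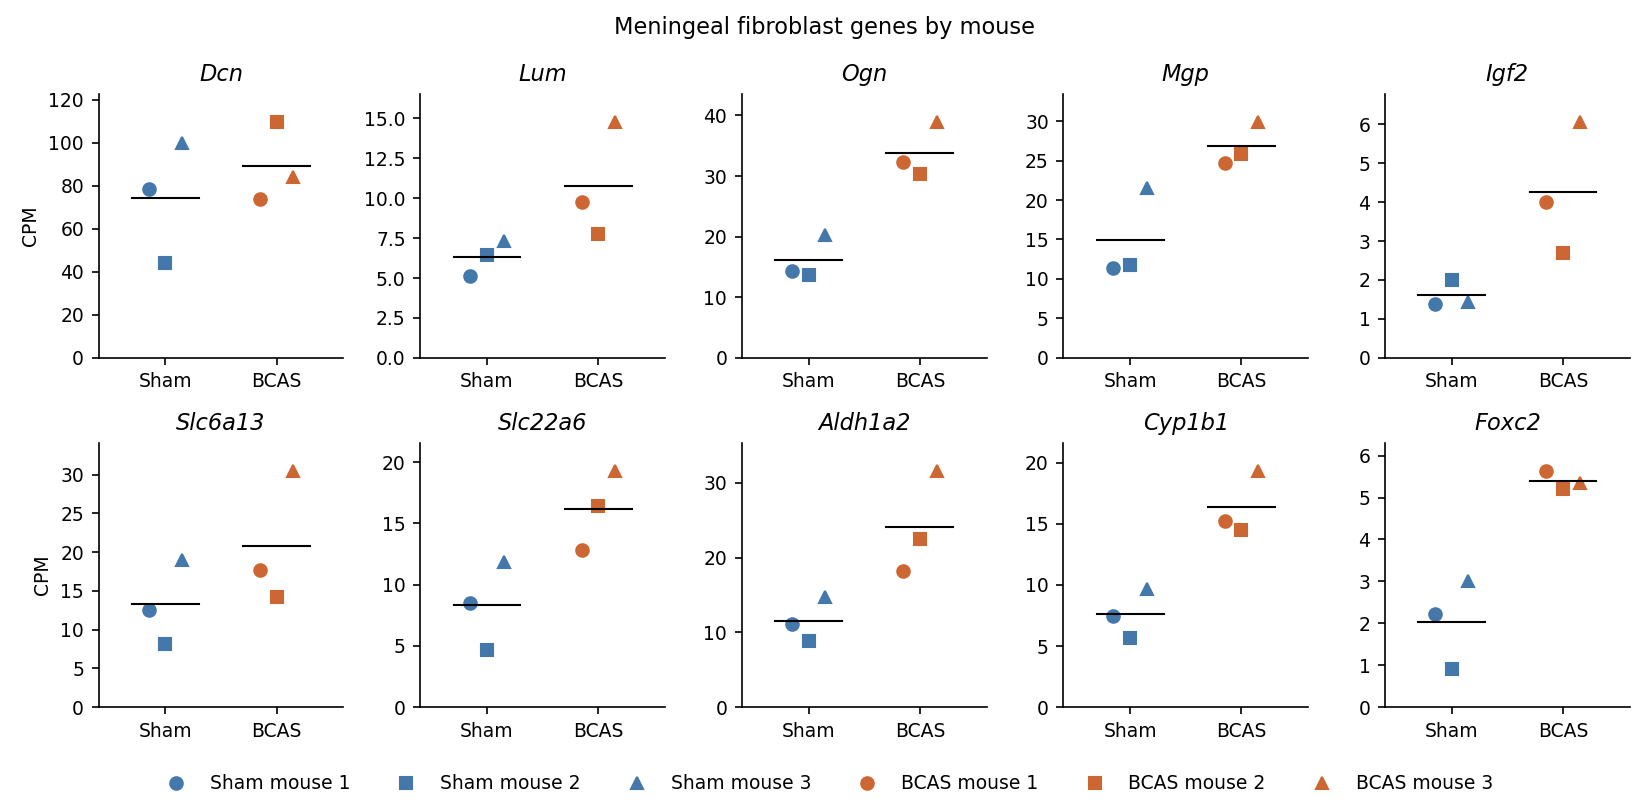
CPM of each member in each mouse, with 1 panel per gene, sham mice in blue, BCAS mice in orange and the group mean as a horizontal line. The groups overlap in *Dcn* and *Slc6a13* only, and sham mouse 3 is the highest sham mouse in 9 of 10 panels.

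*Dcn*, *Lum* and *Ogn* encode decorin, lumican and osteoglycin, small leucine-rich proteoglycans that bind collagen and regulate the growth of its fibrils. *Dcn* (ENSMUSG00000019929.16, mm10 chr10:97479609-97518143, plus strand) stood at 78.6, 44.1 and 99.8 CPM in sham mice 1 to 3 and at 73.8, 109.7 and 84.1 CPM in BCAS mice 1 to 3. The groups overlapped, with sham mouse 2 far below the rest. The sham and BCAS means were 74.2 ± 28.1 CPM and 89.2 ± 18.5 CPM (SD, n = 3 each). The log2 fold change of *Dcn* was 0.27 (SE 0.26, edgeR adjusted P = 0.479), and its 95% interval ran from -0.33 to 0.86, which reaches from a small fall to a 1.81-fold rise. Without sham mouse 2 it was -0.0033.

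*Lum* (ENSMUSG00000036446.5, mm10 chr10:97565128-97572703, plus strand) measured 5.14, 6.44 and 7.29 CPM in sham mice and 9.79, 7.76 and 14.8 CPM in BCAS mice. No BCAS mouse overlapped the sham range, though BCAS mouse 2 lay only 1.06 times above sham mouse 3. The means were 6.29 ± 1.08 CPM and 10.8 ± 3.61 CPM (SD, n = 3 each), and the log2 fold change was 0.78 (SE 0.24, edgeR adjusted P = 0.0386). The adjusted P of *Lum* was 0.0526 by limma-voom, and it missed the threshold without sham mouse 1, 2 or 3, BCAS mouse 1 or BCAS mouse 3, with values up to 0.135. Without BCAS mouse 3, the mouse highest in *Lum*, the log2 fold change was 0.48.

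*Ogn* (ENSMUSG00000021390.6, mm10 chr13:49608046-49624501, plus strand) had 14.3, 13.7 and 20.2 CPM in sham mice and 32.4, 30.3 and 39.0 CPM in BCAS mice. All 3 BCAS mice were well above the sham range, the lowest of them 1.5 times the highest sham mouse. From 16.1 ± 3.59 CPM to 33.9 ± 4.52 CPM (SD, n = 3 each), *Ogn* rose by a log2 fold change of 1.07 (SE 0.17, edgeR adjusted P = 0.00177). Its adjusted P stayed under 0.05 in 17 of 17 alternatives other than glmTreat, the highest being 0.0150, while the log2 fold change ran from 0.96 to 1.33.

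*Dcn* and *Lum* are neighbours on chromosome 10, followed by *Kera* and *Epyc* of the same family, and *Ogn* lies on chromosome 13 after *Ecm2*, *Aspn* and *Omd*. Beside the 3 members, the family list held 14 genes. Of these 12 were tested, 5 rose past both thresholds (*Fmod*, *Omd*, *Bgn*, *Tsku* and *Podn*), 1 fell, and the median log2 fold change was 0.53. Of all tested genes, 8.47% rose and 0.999% fell past both thresholds. *Fmod*, which encodes the collagen-binding fibromodulin, rose from 15.7, 11.9 and 34.3 CPM in sham mice to 50.8, 60.1 and 82.2 CPM in BCAS mice, for a log2 fold change of 1.64 (SE 0.35, edgeR adjusted P = 0.00860). *Bgn*, which encodes biglycan, the closest relative of decorin, rose by 1.37 on the log2 scale (SE 0.22, edgeR adjusted P = 0.00222). *Epyc* went the other way, from 3.07, 2.51 and 2.51 CPM to 1.05, 0.398 and 0.385 CPM, a log2 fold change of -2.13 (SE 0.40, edgeR adjusted P = 0.00459). Neighbours thus did not share 1 direction on chromosome 10, while on chromosome 13 *Omd*, next to *Ogn*, rose by 1.48 (SE 0.39, edgeR adjusted P = 0.0194) and *Aspn* had a log2 fold change of 0.31 (SE 0.29, edgeR adjusted P = 0.455).

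**Figure D2:**
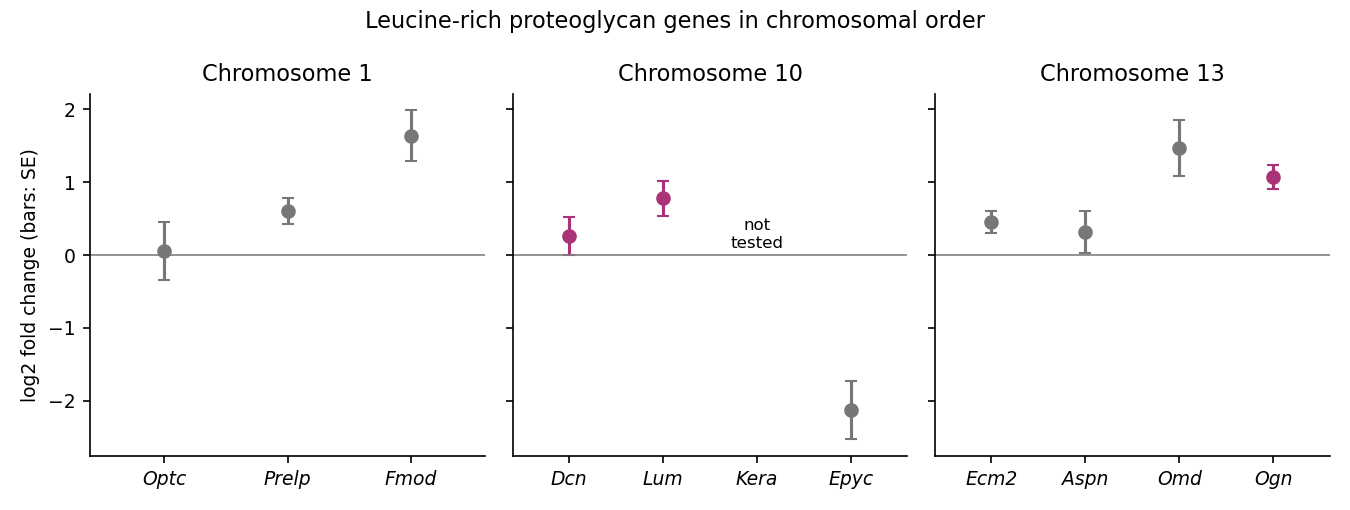
Log2 fold change, BCAS over sham, of leucine-rich proteoglycan genes in their order along chromosomes 1, 10 and 13, with bars for the SE and the members *Dcn*, *Lum* and *Ogn* in purple. *Epyc*, the last gene of the chromosome 10 group, lies at -2.13 while *Lum* lies at 0.78, and *Kera* was too low to test.

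*Mgp* encodes matrix Gla protein, a secreted inhibitor of calcification that is also made by vascular smooth muscle. At mm10 chr6:136872435-136875823 (minus strand, ENSMUSG00000030218.2), it had 11.4, 11.8 and 21.5 CPM in sham mice and 24.7, 25.9 and 29.9 CPM in BCAS mice. Sham mouse 3 lay nearer to the BCAS mice than to the other sham mice, but the groups did not overlap. The means were 14.9 ± 5.70 CPM and 26.8 ± 2.75 CPM (SD, n = 3 each), and *Mgp* rose by a log2 fold change of 0.85 (SE 0.23, edgeR adjusted P = 0.0227). The call was lost without sham mouse 1, sham mouse 2 or BCAS mouse 3, with adjusted P values up to 0.0886. Of the 11 pericyte and smooth muscle markers, 8 had their highest sham value in sham mouse 3, as did 39.1% of tested genes, and 3 had their lowest there. The summed level of the 11 was 329, 322 and 405 CPM in sham mice and 460, 429 and 497 CPM in BCAS mice. Among them, the smooth muscle markers *Acta2*, *Tagln*, *Myh11* and *Cnn1* had log2 fold changes of -0.44, 0.35, 0.08 and 0.06 (edgeR adjusted P = 0.406, 0.601, 0.870 and 0.952). The part of either cell type in the *Mgp* result was not tested.

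*Igf2* encodes insulin-like growth factor 2, a secreted growth factor that in the adult brain comes mainly from the meninges and the choroid plexus. Its counts were 47, 67 and 49 in sham mice and 130, 81 and 189 in BCAS mice, or 1.39, 2.01 and 1.43 CPM against 4.0, 2.69 and 6.06 CPM. All BCAS mice were above all sham mice, and BCAS mouse 2 was the lowest of them. *Igf2* (ENSMUSG00000048583.16, mm10 chr7:142650766-142666816, minus strand) rose from 1.61 ± 0.346 CPM to 4.25 ± 1.70 CPM (SD, n = 3 each), and the log2 fold change was 1.40 (SE 0.32, edgeR adjusted P = 0.0116). The adjusted P was 0.0544 without sham mouse 1 and 0.0523 without sham mouse 3. Within their groups, *Igf2* and the choroid plexus sum were both highest in sham mouse 2 and both lowest in BCAS mouse 2. The lowest sham value of *Igf2* was in sham mouse 1 and that of the sum in sham mouse 3, and the highest BCAS values were in BCAS mice 3 and 1. With the summed choroid plexus level as a covariate its log2 fold change was 1.31 (edgeR adjusted P = 0.00538), and in the 4 libraries high in choroid plexus transcripts, all mice but sham mouse 3 and BCAS mouse 2, it was 1.55 (edgeR adjusted P = 0.0207). Both were chosen after the data were seen, and the second leaves out the lowest BCAS value of *Igf2*. Of its exonic bases, 3596 (62.8%) are shared with *Gm49394* on the same strand, which had 0 counts. The counting command in the file headers assigns a read to no gene where 2 genes share the base, so the level of *Igf2* leaves those bases out, as well as 98 bases shared with the antisense gene *Igf2os*.

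The list of 12 IGF2 partners held genes for receptors, binding proteins and relatives, and others such as *Igf2bp2*, which encodes an RNA-binding protein. Of the 12, 5 rose past both thresholds (*Igf1*, *Igf2bp2*, *Igfbp5*, *Igfbp2* and *Igfbp7*), against 8.47% of all tested genes. None fell past both, and the median log2 fold change was 0.75. *Igfbp4*, another binding protein gene, fell with an adjusted P under 0.05, from 101, 101 and 107 CPM to 83.1, 68.5 and 86.3 CPM, at a log2 fold change of -0.37 (SE 0.09, edgeR adjusted P = 0.0160). *Igf1*, the sister growth factor, which microglia also make, rose from 10.1, 8.68 and 8.89 CPM to 22.6, 36.2 and 40.8 CPM, a log2 fold change of 1.85 (SE 0.21, edgeR adjusted P = 0.000289). The binding protein gene *Igfbp5* rose from 204, 202 and 190 CPM to 605, 531 and 624 CPM, a log2 fold change of 1.56 (SE 0.09, edgeR adjusted P = 1.71e-05). *Igfbp2* rose by 1.35 (SE 0.43, edgeR adjusted P = 0.0423), yet its values of 47.4, 117 and 50.1 CPM against 206, 86.2 and 253 CPM overlapped, with BCAS mouse 2 below sham mouse 2. With the choroid plexus covariate its log2 fold change was 1.18 (edgeR adjusted P = 0.00296). *Igf1r*, the receptor that conveys the growth signal, had a log2 fold change of 0.18 (SE 0.10, edgeR adjusted P = 0.194).

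*Slc6a13* and *Slc22a6* encode carriers of the blood to cerebrospinal fluid barrier, GAT2 for GABA and OAT1 for organic anions. *Slc6a13* (ENSMUSG00000030108.14, mm10 chr6:121300227-121337733, plus strand) had 12.6, 8.17 and 19 CPM in sham mice and 17.7, 14.3 and 30.5 CPM in BCAS mice. Sham mouse 3 lay above BCAS mice 1 and 2, so the groups overlapped. The means of 13.2 ± 5.44 CPM and 20.8 ± 8.54 CPM (SD, n = 3 each) gave a log2 fold change of 0.65 (SE 0.34, edgeR adjusted P = 0.175) with a 95% interval from -0.11 to 1.42. It was 0.27 without BCAS mouse 3 (edgeR adjusted P = 0.579), 0.40 without sham mouse 2 (edgeR adjusted P = 0.410) and 1.00 without sham mouse 3 (edgeR adjusted P = 0.0788). With the choroid plexus covariate it was 0.68 (edgeR adjusted P = 0.162). With the replicate number as a block it was 0.66 (edgeR adjusted P = 0.0128), though same-numbered mice were not taken as pairs. The filter of at least 1 count gave 0.65 (edgeR adjusted P = 0.0431). In the 4 libraries high in choroid plexus transcripts the log2 fold change was 1.20 (edgeR adjusted P = 0.0337), but this choice was made after the data were seen. It leaves out the highest sham and the lowest BCAS value of *Slc6a13*, which by itself widens the difference.

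*Slc22a6* (ENSMUSG00000024650.4, mm10 chr19:8617996-8628299, plus strand) had 8.53, 4.67 and 11.8 CPM in sham mice and 12.8, 16.4 and 19.3 CPM in BCAS mice. The groups did not overlap, but the lowest BCAS mouse was only 1.08 times the highest sham mouse. Its means were 8.34 ± 3.57 CPM and 16.1 ± 3.24 CPM (SD, n = 3 each), and the log2 fold change was 0.95 (SE 0.30, edgeR adjusted P = 0.0383). The call was lost without sham mouse 1, sham mouse 2, BCAS mouse 2 or BCAS mouse 3, with log2 fold changes of 0.97, 0.66, 0.94 and 0.80 and adjusted P values up to 0.115. Of 12 other carriers of this barrier or of GABA, 3 rose past both thresholds, against 8.47% of all tested genes. *Slc13a3*, a dicarboxylate carrier, rose from 17.7, 13.1 and 21.5 CPM to 33.6, 34.4 and 43.7 CPM, a log2 fold change of 1.09 (SE 0.18, edgeR adjusted P = 0.00248). *Slc26a7*, an anion exchanger, rose by 1.31 (SE 0.19, edgeR adjusted P = 0.00126), and *Slc13a4*, a sulfate carrier also used in the choroid plexus, by 1.08 (SE 0.32, edgeR adjusted P = 0.0330). The values of *Slc13a4*, 23.6, 35.0 and 21.7 CPM against 77.3, 29.2 and 62.7 CPM, overlapped between groups, and the mice of each group stood in the order of their choroid plexus sums. With the choroid plexus covariate, added after the data were seen, its log2 fold change was 0.90 (edgeR adjusted P = 0.000811), under the fold threshold. *Slc6a11*, a GABA carrier of astrocytes, had a log2 fold change of 0.05 (SE 0.09, edgeR adjusted P = 0.738).

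*Aldh1a2* and *Cyp1b1* encode enzymes. Retinaldehyde dehydrogenase 2 oxidises retinaldehyde to retinoic acid, and cytochrome P450 1B1 oxidises steroids, retinoids and foreign aromatic compounds. *Aldh1a2* (ENSMUSG00000013584.5, mm10 chr9:71215789-71296243, plus strand) had 11.1, 8.89 and 14.8 CPM in sham mice and 18.3, 22.4 and 31.6 CPM in BCAS mice. No values overlapped, and BCAS mouse 3 was far above the other 2. From 11.6 ± 2.98 CPM to 24.1 ± 6.81 CPM (SD, n = 3 each), *Aldh1a2* rose by a log2 fold change of 1.06 (SE 0.23, edgeR adjusted P = 0.00967). *Cyp1b1* (ENSMUSG00000024087.4, mm10 chr17:79701537-79715061, minus strand) had 7.44, 5.69 and 9.68 CPM in sham mice and 15.3, 14.5 and 19.3 CPM in BCAS mice. Its lowest BCAS mouse was 1.5 times its highest sham mouse, and it rose from 7.60 ± 2.0 CPM to 16.4 ± 2.60 CPM (SD, n = 3 each). The log2 fold change of *Cyp1b1* was 1.11 (SE 0.20, edgeR adjusted P = 0.00400). Like *Ogn*, both kept an adjusted P under 0.05 in 17 of 17 alternatives other than glmTreat, with highest values of 0.0479 for *Aldh1a2* and 0.0251 for *Cyp1b1*.

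Of 17 tested genes of the retinoic acid pathway beside *Aldh1a2*, 5 rose with an adjusted P under 0.05, against 18.0% of all tested genes, and none fell. Past both thresholds 1 rose, against 8.47% of all tested genes, and the median log2 fold change was 0.29. The 1 gene was *Dhrs3*, which reduces retinaldehyde back to retinol, and it went from 12.8, 18.8 and 16.6 CPM to 43.5, 45.6 and 53.8 CPM, a log2 fold change of 1.57 (SE 0.15, edgeR adjusted P = 0.000126). *Aldh1a1*, another enzyme that makes retinoic acid, rose by 0.93 (SE 0.20, edgeR adjusted P = 0.00808). *Rdh10*, which makes retinaldehyde from retinol and is used in the pia, had a log2 fold change of 0.51 (SE 0.17, edgeR adjusted P = 0.0512). The count of 1 past both thresholds was higher under library totals, by DESeq2 and with the choroid plexus covariate, as given in the last section. *Crabp2* had a log2 fold change of 1.22 (edgeR adjusted P = 0.0551), and 1.35 with the covariate (edgeR adjusted P = 0.0190).

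*Foxc2* encodes a forkhead transcription factor of mesenchyme and vessels. It lies at mm10 chr8:121116171-121118895 (plus strand, ENSMUSG00000046714.7). Its counts were 75, 30 and 103 in sham mice and 183, 157 and 167 in BCAS mice, or 2.21, 0.898 and 3.00 CPM against 5.63, 5.21 and 5.35 CPM. The BCAS mice lay close together, the lowest 1.73 times the highest sham mouse, whereas the sham mice were spread over 3.34-fold. From 2.04 ± 1.06 CPM to 5.4 ± 0.217 CPM (SD, n = 3 each), *Foxc2* rose by a log2 fold change of 1.40 (SE 0.36, edgeR adjusted P = 0.0180). The adjusted P was 0.0600 without sham mouse 1. Of 17 other mesenchymal transcription factors, 7 rose with an adjusted P under 0.05, against 18.0% of all tested genes, and none fell. Past both thresholds 2 rose, against 8.47% of all tested genes. *Prrx2* rose from 0.679, 0.688 and 2.07 CPM to 4.06, 3.58 and 3.82 CPM, a log2 fold change of 1.73 (SE 0.41, edgeR adjusted P = 0.0134), and the other was *Six2*, at 1.86 (SE 0.45, edgeR adjusted P = 0.0136). *Tbx18*, also a gene of pericytes, stayed just under the fold threshold at 0.996 (SE 0.19, edgeR adjusted P = 0.00506). With the choroid plexus covariate it was 1.03 (edgeR adjusted P = 0.00272). The count of 2 past both thresholds was thus higher with the covariate, and it was also higher under library totals, as given in the last section.

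**Figure D3:**
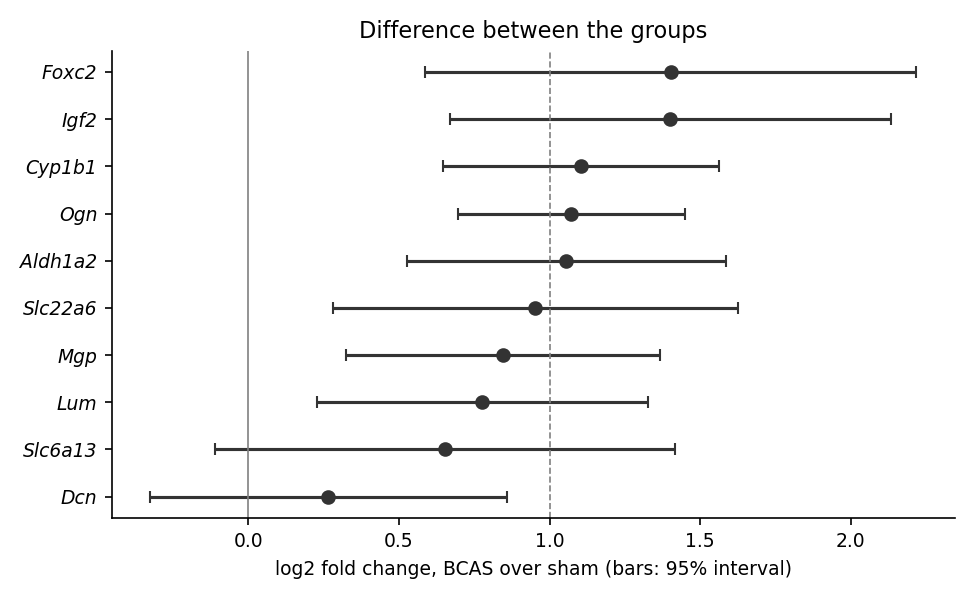
Log2 fold change of each member, BCAS over sham, with 95% intervals from the edgeR fit, a solid line at 0 and a dashed line at the threshold of 1. All 10 points lie above 0, the intervals of *Dcn* and *Slc6a13* include 0, and every interval but that of *Dcn* includes 1.

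Per kilobase of exon, which allows genes to be compared, levels were taken over bases that belong to 1 gene only. For *Igf2* these were 2029 of 5723 bases, and for the other 9 members all bases. *Dcn* and *Mgp* led in sham mice with 12.7 ± 4.82 and 12.6 ± 4.80 CPM per kilobase (SD, n = 3 each). *Ogn* followed with 6.28, *Aldh1a2* with 5.11, *Slc6a13* with 4.56, *Lum* with 2.57, *Slc22a6* with 2.07, *Cyp1b1* with 1.30, *Igf2* with 0.792 and *Foxc2* with 0.748. Neighbours in this order overlapped in their ranges among sham mice, except *Mgp* and *Ogn*, so only the step between this pair exceeded the spread between mice. In BCAS mice *Mgp* led with 22.6 CPM per kilobase and *Dcn* was second with 15.3. The other 8 members kept their order.

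Levels differed among mice of 1 group. The ratio of the highest to the lowest sham mouse ran from 1.42 for *Lum* to 3.34 for *Foxc2*, with a median of 1.79 over the members. Over 18404 tested genes with counts in each mouse this ratio had a median of 1.20. Ratios larger than that of *Foxc2* were found in 3.83% of these genes, and ratios larger than those of *Slc22a6* (2.53), *Slc6a13* (2.32) and *Dcn* (2.26) in 7.06%, 8.22% and 8.78%. Sham mouse 3 was highest of the sham mice in 9 of 10 members, as in 39.1% of tested genes, and sham mouse 2 was lowest in 7 of 10, as in 32.4%. *Igf2* was the exception to the first pattern, while *Lum*, *Mgp* and *Igf2* were lowest in sham mouse 1. Among BCAS mice the median ratio was 1.5 over the members and 1.28 over the same tested genes. The smallest was 1.08 for *Foxc2* and the largest 2.26 for *Igf2*. BCAS mouse 3 was highest in 8 of 10 members, as in 34.3% of tested genes, with *Dcn* highest in BCAS mouse 2 and *Foxc2* in BCAS mouse 1. In 7 of 10 members the sham mice were spread more widely than the BCAS mice, as in 38.8% of tested genes.

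**Figure D4:**
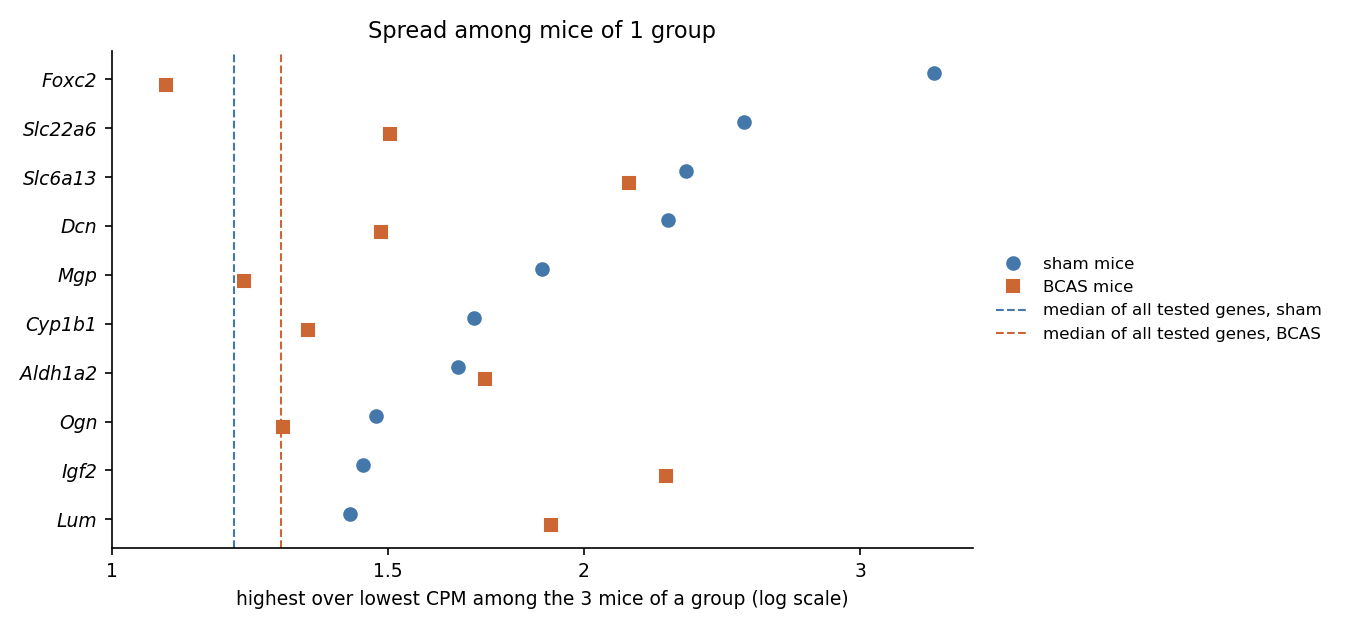
Ratio of the highest to the lowest CPM among the 3 mice of a group for each member, on a log axis, with circles for sham and squares for BCAS mice and dashed lines at the medians of all tested genes. Every sham ratio lies to the right of the sham median of 1.20, and *Foxc2* has both the largest sham ratio (3.34) and the smallest BCAS ratio (1.08).

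Summed over the 10 members, the level was 152.7, 106.4 and 208.5 CPM in sham mice 1 to 3 and 214.3, 249.1 and 279.8 CPM in BCAS mice 1 to 3. The group means were 156 ± 51.1 CPM and 248 ± 32.8 CPM (SD, n = 3 each), a ratio of 1.59. Sham mouse 3 reached nearly the level of BCAS mouse 1, but the groups did not overlap. *Dcn* made up 30.1% to 51.5% of the sum. Without *Dcn* the sums were 74.1, 62.3 and 108.7 CPM against 140.5, 139.4 and 195.7 CPM, a ratio of 1.94, and again the groups did not overlap. The summed endothelial markers were 340 to 372 CPM in sham mice and 458 to 495 CPM in BCAS mice. They amounted to 2.23, 3.31 and 1.79 times the member sum in sham mice and to 2.24, 1.84 and 1.77 times in BCAS mice, so relative to endothelium the member sums of the groups overlapped. Against the sums without *Dcn* they amounted to 4.59, 5.65 and 3.43 times in sham mice and to 3.42, 3.29 and 2.53 times in BCAS mice, where the groups nearly touched but did not overlap.

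Other meningeal lists were read from the same fit, in which 8.47% of all tested genes rose and 0.999% fell past both thresholds. With an adjusted P under 0.05, 18.0% rose and 13.2% fell. Of 8 arachnoid genes, 4 rose past both thresholds (*Bnc2*, *Angptl2*, *Cdh1* and *Ptgds*) and the median log2 fold change was 1.13. *Angptl2*, which encodes a secreted angiopoietin-like protein, had 4.54, 10.6 and 5.13 CPM in sham mice and 21.9, 10.5 and 26.3 CPM in BCAS mice, so BCAS mouse 2 overlapped with sham mouse 2. Its log2 fold change was 1.53 (edgeR adjusted P = 0.0171), and 1.40 with the choroid plexus covariate (edgeR adjusted P = 0.00145). *Ptgds*, the prostaglandin D synthase that is among the most abundant transcripts of the leptomeninges, had 599, 439 and 901 CPM in sham mice and 1124, 1239 and 1612 CPM in BCAS mice, for a log2 fold change of 1.04 (SE 0.25, edgeR adjusted P = 0.0138). Its sham mice stood in the same order as most members, with sham mouse 3 highest and sham mouse 2 lowest. Of 8 pial genes, 2 rose past both thresholds, with a median of 0.79. These were *S100a6*, a calcium-binding protein gene that reactive glia also use, at a log2 fold change of 2.10 (SE 0.16, edgeR adjusted P = 4.67e-05), and *Col4a6*, a basement membrane collagen, at 1.59 (SE 0.22, edgeR adjusted P = 0.00100). Of 6 dural genes, 2 rose (*Dkk2* and *Fxyd5*) and 1 fell past both thresholds, and the median was -0.05. The gene that fell was *Crym*, which neurons of the forebrain also express, at -1.18 (SE 0.19, edgeR adjusted P = 0.00197). *Ccn3*, which is likewise expressed by neurons, had a log2 fold change of -0.53 (SE 0.24, edgeR adjusted P = 0.131). With the choroid plexus covariate it was -0.48 (edgeR adjusted P = 0.00309).

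Of 16 general fibroblast collagen and matrix genes 15 were tested, and 8 rose past both thresholds with a median log2 fold change of 1.04 and none fell. For this list and those that follow, the shares of all tested genes were those just given. *Col3a1*, a chain of fibrillar collagen, went from 4.40, 4.16 and 9.59 CPM to 19.3, 79.5 and 55.5 CPM, a log2 fold change of 3.09 (SE 0.51, edgeR adjusted P = 0.00250). *Col1a1* went from 11.6, 9.19 and 20.9 CPM to 31.0, 65.9 and 85.6 CPM, a log2 fold change of 2.13 (SE 0.39, edgeR adjusted P = 0.00409). The log2 fold changes of both exceeded those of all 10 members, whose highest were 1.40, and both were highest among sham mice in sham mouse 3. The differences between these collagens and the members were not tested. Border macrophages, which live in the meninges and around vessels, were covered by 7 markers. Of these *Mrc1*, *Cd163*, *F13a1*, *Cbr2* and *Folr2*, 5 in all, rose past both thresholds, and the sum of the 7 was 10.4 to 14.9 CPM in sham mice and 26.5 to 34.2 CPM in BCAS mice. The remaining markers, *Pf4* and *Lyve1*, had log2 fold changes of 0.70 and 0.14 (edgeR adjusted P = 0.170 and 0.825). The 8 endothelial markers had no call past both thresholds and 5 with an adjusted P under 0.05, at a median log2 fold change of 0.47. For the 11 pericyte and smooth muscle markers the counts were 1 and 5, and the median was 0.35. All 7 microglial markers rose past both thresholds, with a median of 2.58, and their sum was 295 to 307 CPM in sham mice and 1434 to 2293 CPM in BCAS mice. All 4 astrocyte markers rose with an adjusted P under 0.05 and 1 past both thresholds, whereas none of 4 oligodendrocyte markers did. Of the 8 hippocampal neuron markers, 5 were lower with an adjusted P under 0.05. Past both thresholds 2 were lower (*Fibcd1* and *Neurod6*), none was higher, and the median log2 fold change was -0.54. No marker on any of these lists was at 0 in all mice, and the part of other cell types in the levels of the members was not tested.

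**Figure D5:**
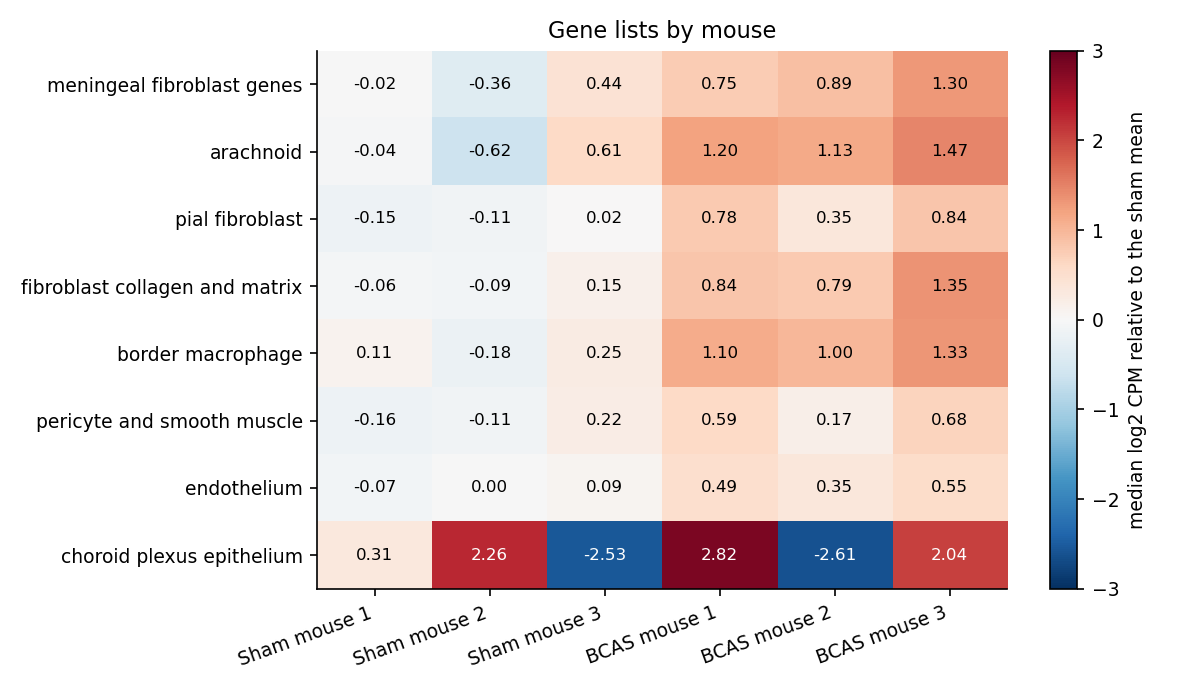
Median log2 CPM of each gene list in each mouse, relative to the mean of the sham mice, with red above and blue below that mean. The members run from -0.36 in sham mouse 2 to 1.30 in BCAS mouse 3, next to an arachnoid list that runs from -0.62 to 1.47, while the choroid plexus list runs from -2.61 in BCAS mouse 2 to 2.82 in BCAS mouse 1.

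None of the 12 choroid plexus markers passed an adjusted P of 0.05, and their median log2 fold change was 0.91. In the sham group, mouse 3, lowest in choroid plexus, was highest in 9 of 10 members. In the BCAS group, mouse 2, lowest in choroid plexus, was lowest in 6 of 10 members, as in 34.8% of tested genes. With the summed choroid plexus level as a covariate, 6 members were higher past both thresholds, beside 8.51% of tested genes in that fit. In the 4 libraries high in choroid plexus, 9 were (all but *Dcn*), beside 8.24% of tested genes. That choice leaves out the sham mouse highest in 9 members and the BCAS mouse lowest in 6, which widens the gap between the groups by construction, so the count of 9 is no support for the difference. The part of choroid plexus tissue in the levels of the members was otherwise not tested. In the remaining pair, sham mouse 3 and BCAS mouse 2, 9 of 10 members were higher in the BCAS mouse, as were 50.5% of tested genes. For the 8 members whose groups did not overlap this was fixed in advance, so the count of 9 adds no support for the difference. *Slc6a13* was the exception in this pair, at 19 CPM in sham mouse 3 and 14.3 CPM in BCAS mouse 2, and the pair has no replicates. Of the 6 markers of ependyma, which lines the ventricle beside the plexus, 2 rose with an adjusted P under 0.05 and none past both thresholds, against 18.0% and 8.47% of all tested genes.

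By profile over the 6 libraries, the tested genes nearest to the mean of the members were *Serpind1*, *Gbp4*, *Slc13a3*, *Pear1* and *Ptgds*. The measure was the root mean square difference of centred log2 CPM, and it was 0.056, 0.081, 0.091, 0.096 and 0.099 for these 5 genes. The members themselves lay at 0.082 (*Cyp1b1*) to 0.463 (*Igf2*) from their own mean, with *Dcn* at 0.435 and *Foxc2* at 0.436. *Serpind1*, which encodes heparin cofactor II, a thrombin inhibitor, had 3.93, 3.08 and 4.81 CPM in sham mice and 6.93, 6.90 and 9.43 CPM in BCAS mice. *Slc13a3* and *Ptgds* were on the carrier and arachnoid lists, and *Gbp4* is a gene induced by interferon.

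Promoter sequences from RefSeq (GRCm38.p6) were held for 6 members in 11 windows from 250 bases before to 50 bases after a start site, among 32817 windows of that length. The windows of *Ogn*, *Aldh1a2* and *Cyp1b1* are shown from 170 bases before to 30 bases after the start, because these 3 members passed the adjusted P in the 17 alternatives other than glmTreat. They are written 5′ to 3′ on the strand of the gene, and capitals mark GCGTG, the core letters bound by the aryl hydrocarbon receptor, or GGAATG, a core bound by TEAD factors, on either strand. The windows are chr13:49607845-49608044 (plus) for *Ogn*, chr9:71215619-71215818 (plus) for *Aldh1a2* and chr17:79715032-79715231 (minus) for *Cyp1b1*.
Ogn: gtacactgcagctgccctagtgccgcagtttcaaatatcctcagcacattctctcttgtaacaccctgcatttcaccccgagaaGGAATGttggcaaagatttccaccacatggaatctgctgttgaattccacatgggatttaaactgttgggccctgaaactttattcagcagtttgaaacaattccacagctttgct
Aldh1a2: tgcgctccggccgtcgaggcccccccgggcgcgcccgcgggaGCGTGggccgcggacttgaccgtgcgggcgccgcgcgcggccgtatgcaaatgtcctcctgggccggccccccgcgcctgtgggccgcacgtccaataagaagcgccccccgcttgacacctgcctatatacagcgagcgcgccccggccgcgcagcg
Cyp1b1: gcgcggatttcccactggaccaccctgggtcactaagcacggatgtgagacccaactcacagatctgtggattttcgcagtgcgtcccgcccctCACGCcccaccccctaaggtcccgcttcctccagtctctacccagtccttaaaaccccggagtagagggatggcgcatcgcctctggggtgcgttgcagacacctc

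*Ogn* held GGAATG at -86, counted to the first letter from the start site, and a TATAAA at -227 outside the stretch shown. *Aldh1a2* held GCGTG at -128, and *Cyp1b1*, a classical target of the aryl hydrocarbon receptor, held it on the other strand, read as CACGC, at -76. GGAATG stood in 6 of the 11 member windows (*Igf2*, *Ogn*, *Slc22a6* and *Slc6a13*) and in 14.7% of all windows, and the 4 windows of *Igf2* and the 3 of *Slc6a13* belong to 1 gene each. GCGTG stood in 3 of 11 (*Aldh1a2*, *Cyp1b1* and *Slc6a13*) and in 32.4% of all. AGGTCA, 1 arm of the site of nuclear receptors such as those for retinoic acid, stood in 2 of 11 (*Igf2* and *Slc6a13*) and in 16.3% of all, and TATAAA in 1 of 11 and 13.6%. The forkhead letters GTAAACA were in none of the 11 and in 3.65% of all windows. The same held for the AP-1 letters TGANTCA, which 7.81% of all windows hold, and for the STAT letters TTCNNNGAA, which 8.29% hold. Both strands were searched, GCGTG and GGAATG share no overlap in the windows shown, and a match says only that the letters are there.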

How the data were processed

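The authors sequenced paired-end libraries from TRIzol-extracted RNA of the whole right hippocampus, trimmed the reads with Trim Galore, aligned them to mm10 with HISAT2, sorted them with SAMtools 1.9 and counted them per gene with featureCounts. They deposited raw counts per gene, 1 table per library, without normalization. The methods name featureCounts 1.6.3, whereas the file headers name 2.0.3 with GENCODE M20. By the command in those headers, each mate counted as 1 read on either strand, and reads with several alignments or on 2 genes were left out.

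Counts were analysed in R 4.3.3 with edgeR 4.0.16 (filterByExpr, TMM, quasi-likelihood test, Benjamini-Hochberg adjustment over 18617 genes). Log2 CPM used a prior count of 2. SEs were taken from the log2 fold change and its F statistic, and 95% intervals from the t distribution with the degrees of freedom of the fit. TMM factors were 0.964 to 0.984 in sham and 1.01 to 1.05 in BCAS libraries. No exact permutation test was used, since with 3 mice per group its smallest P is 0.1. The labels do not say whether the mice shared litters or days, and the P values set the difference between the groups against the spread between these mice. Of the 54752 genes, 29 had no symbol.

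The members and lists were chosen with earlier results of these data known. The genes named were all members, in each other list up to 4 tested genes averaging at least 1 CPM with the largest log2 fold changes and up to 2 more with the highest level, and the 5 genes nearest to the members in profile. *Six2*, *Bnc2*, *Folr2*, *Igfbp7*, *Tsku* and *Podn* were named after their values were seen, to complete a count. *Acta2*, *Tagln*, *Myh11* and *Cnn1* were also named after their values were seen, to show the smooth muscle part of a list. Alternatives were DESeq2 1.42.0, limma-voom 3.58.1, glmTreat, RLE factors, library totals, other filters on low counts, thinned counts, halved counts, the replicate number as a block and leaving out each mouse. The choroid plexus covariate and the 4 libraries high in choroid plexus transcripts were added after the data were seen. The steps were tested on simulated data. Blood flow, histology, qRT-PCR and published single-cell data were not analysed here.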

Additional observations from a re-analysis of the deposited data

How the results depend on the processing

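The number of members higher past both thresholds was 5. It was 5 or 6 under DESeq2, limma-voom, RLE factors, library totals, both other filters, thinned counts and halved counts, 8 without the fold threshold, 0 under glmTreat (adjusted P from 0.583 to 1.00 over the 5 members), 6 with the choroid plexus covariate and 9 in the 4 libraries high in choroid plexus transcripts. Leaving out 1 mouse gave 2 to 6. The same-numbered mice of the groups had residual correlations of 0.036, -0.314 and -0.158, so the numbers were not taken as pairs. With the replicate block the number was 6, and *Slc6a13* reached an adjusted P of 0.0128. *Dcn* had a log2 fold change of -0.0033 without sham mouse 2, 0.54 without sham mouse 3 and a positive one in every other alternative. Of 180 alternative values for the members, 152 kept their direction and side of the adjusted P threshold, 24 no longer passed, 3 (all *Slc6a13*, the highest adjusted P 0.0431) newly passed and 1 was reversed. No member was lower past both thresholds under any alternative. The ratio of summed levels was 1.59, and 1.94 without *Dcn*. Library totals moved the median of all tested genes from 0.02 to 0.09 on the log2 scale and the list counts past both thresholds to 3 for the retinoic acid pathway (2 by DESeq2), 4 for mesenchymal transcription factors, 1 for ependyma, 1 for endothelium, 10 for fibroblast collagen and matrix and 5 for the arachnoid (5 by DESeq2). DESeq2 gave 4 for the IGF2 partners and 2 for the carriers. With the choroid plexus covariate the counts were 2 for the retinoic acid pathway and 0 for pericytes and smooth muscle. *Crabp2* and *Slc47a1* of the arachnoid list then also passed both thresholds, at log2 fold changes of 1.35 and 1.04. So did *Tbx18* of the mesenchymal factors, at 1.03, whereas *Slc13a4* of the carriers no longer did, at 0.90. The causes were not tested. With 3 mice per group, a difference whose 95% interval included 0, as for *Dcn*, was not resolved.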
